A study of Mus musculus with 12 samples.

Results

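Melan-A is an immortal line of mouse melanocytes, which served here as the non-tumorigenic counterpart of the tumorigenic B16F0 and metastatic B16F10 melanoma lines. Its response to SX-682, a small-molecule antagonist of the chemokine receptors CXCR1 and CXCR2, was measured by RNA-seq of total RNA. The 4 Melan-A libraries were taken of the 12 in the study: 2 untreated controls (labelled no treatment) and 2 libraries of cells given SX-682, and all genes of the count table were followed. The other 8 libraries, 2 controls and 2 treated for each B16 line, were used to ask which changes were particular to Melan-A. The labels give no genetic change in any group, and the dose and exposure time of these cultures are not given in the sources used here. Nor do the labels say whether the controls were given the drug's solvent. If they were not, effects of solvent and drug cannot be told apart. Nothing in the labels says that the 2 libraries of a group came from separate cultures, so the p-values measure only the spread between these libraries, which may be technical.

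CXCR2 is a G protein-coupled receptor for the CXCL chemokines that carry a glutamate-leucine-arginine motif, among them CXCL1, CXCL2 and CXCL5, and it signals to calcium, PI3K and the ERK MAP kinase pathway. Melanocytes descend from the neural crest. They make melanin in melanosomes, organelles related to lysosomes, under the transcription factors SOX10, PAX3 and MITF, and Melan-A cells are commonly grown with a phorbol ester mitogen in place of signals from keratinocytes, although whether that was done here is not stated.

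The Melan-A libraries held 66225947 to 85322092 counts, and the B16 libraries 48876982 to 75138976. Levels are given as CPM (counts scaled to a common library size, with TMM factors), and changes as log2 fold changes of SX-682 over control from edgeR's quasi-likelihood fit of all 12 libraries. A gene was called where its Benjamini-Hochberg adjusted p over the 18338 genes tested was below 0.05. A count of 3 was used as the floor, which is 0.033 to 0.0421 CPM in the Melan-A libraries. The coefficient of biological variation from the common dispersion of the fit was 2.78%, so small differences passed the test. A single gene compared by exact permutation of 2 against 2 libraries could not go below p = 0.333.

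The melanocyte label was checked against defining markers. In the controls Sox10 stood at a mean of 670.1 CPM, Dct at 355, Pax3 at 251, Mlana at 116, Tyrp1 at 107 and Mitf at 102 CPM. Other pigment genes were at or below 10 CPM: Pmel was at 8.11, Mc1r at 3.25, Tyr at 0.826, Slc24a5 at 0.558, Oca2 at 0.18 and Kit at 0.0857 CPM. For comparison, Tyr was at 515 CPM in B16F0 and 68.1 CPM in B16F10 controls. Genes that also mark Schwann cells were detected, with Mbp at 450.1 and S100b at 242 CPM. Several defining markers of other cell types were at or near 0 in all 4 libraries: Krt5 had 0 to 6 counts, Krt1 had 0 or 1, Cd3e had 0 or 1 and Kdr had 4 to 16. Others were not. Trp63, a factor of basal keratinocytes, was at 2.54 and 2.06 CPM in the controls and 0.757 and 0.693 CPM with SX-682 (log2 fold change -1.66, standard error 0.344, edgeR adjusted p = 0.000204). Cd68, a macrophage marker that is also a lysosomal gene, was at 15.9 and 16.1 CPM in the controls and 43.9 and 45.3 CPM with SX-682 (log2 fold change 1.48, standard error 0.0647, edgeR adjusted p = 1.04e-17). Of the 5 keratinocyte markers tested 0 rose and 2 fell, of the 5 blood cell markers 1 rose and 1 fell, and of the 6 endothelial markers 1 rose and 0 fell, and the part of these genes in other changes was not tested. Fibroblast markers were not absent, since Pdgfrb was at 103, Col3a1 at 53.9 and Col1a1 at 46.4 CPM. B16 transcripts were scarce in these libraries: Galk1 had 97161 counts over the 8 B16 libraries and 1 over the 4 Melan-A libraries.

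The genes of the drug's own target were at the lower end of detection. Cxcr2 was at 0.915 and 0.837 CPM in the controls and 0.477 and 0.626 CPM with SX-682 (log2 fold change -0.66, standard error 0.448, edgeR adjusted p = 0.24), which did not pass the test. Both treated libraries lay below both controls. Cxcr1 had 21 and 13 counts in the controls and 2 and 3 counts with SX-682, so that the treated libraries were at or under the floor, and its call (edgeR adjusted p = 0.0391), which was lost without any 1 of the 4 libraries (-2.0 to -2.76), carries no bound on the fold. Of the ligands, Cxcl1 was at 0.637 and 0.671 CPM in the controls and 0.196 and 0.0799 CPM with SX-682 (log2 fold change -2.25, standard error 0.293, edgeR adjusted p = 1.45e-07). Its change was 1.7 in B16F0 and 0.69 in B16F10 (difference from the mean B16 change -3.44, standard error 0.282, edgeR adjusted p = 3.44e-11), with the opposite sign to Melan-A. Cxcl5 (0.591 and 0.616 against 0.253 and 0.0533 CPM) was called with a log2 fold change of -1.98, which was -3.45 without the first treated library and, no longer past the test, -1.24 without the second. Cxcl15 (0.764 and 0.506 against 0.281 and 0.20 CPM, log2 fold change -1.4, standard error 0.536, edgeR adjusted p = 0.0323) was no longer past the test without any 1 of the 4 Melan-A libraries, with changes of -1.07 to -1.66. Cxcl2 (4.59 and 4.05 against 3.13 and 3.57 CPM, log2 fold change -0.37, standard error 0.24, edgeR adjusted p = 0.224) did not pass, although it passed in a fit of the Melan-A libraries alone (-0.36, edgeR adjusted p = 0.0304). Other than Cxcl2, these transcripts were below 1 CPM in all 4 libraries, and Cxcl3, Ppbp and Pf4 were too low to be tested.

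Across the genome SX-682 treatment raised 4299 genes (23.4% of those tested) and lowered 4532 (24.7%) in Melan-A. Most of these changes were small: the median absolute log2 fold change of the called genes was 0.36, and 5842 of them changed by less than 0.5. A rise of at least 1 on the log2 scale was called for 504 genes (2.75%) and a fall of at least 1 for another 504 (2.75%). The shares of 23.4% and 24.7% are the background against which each gene group is read. Where a Melan-A change is described as smaller or larger than in B16, it lay outside both B16 changes by a direct test of each difference.

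**Figure D1:**
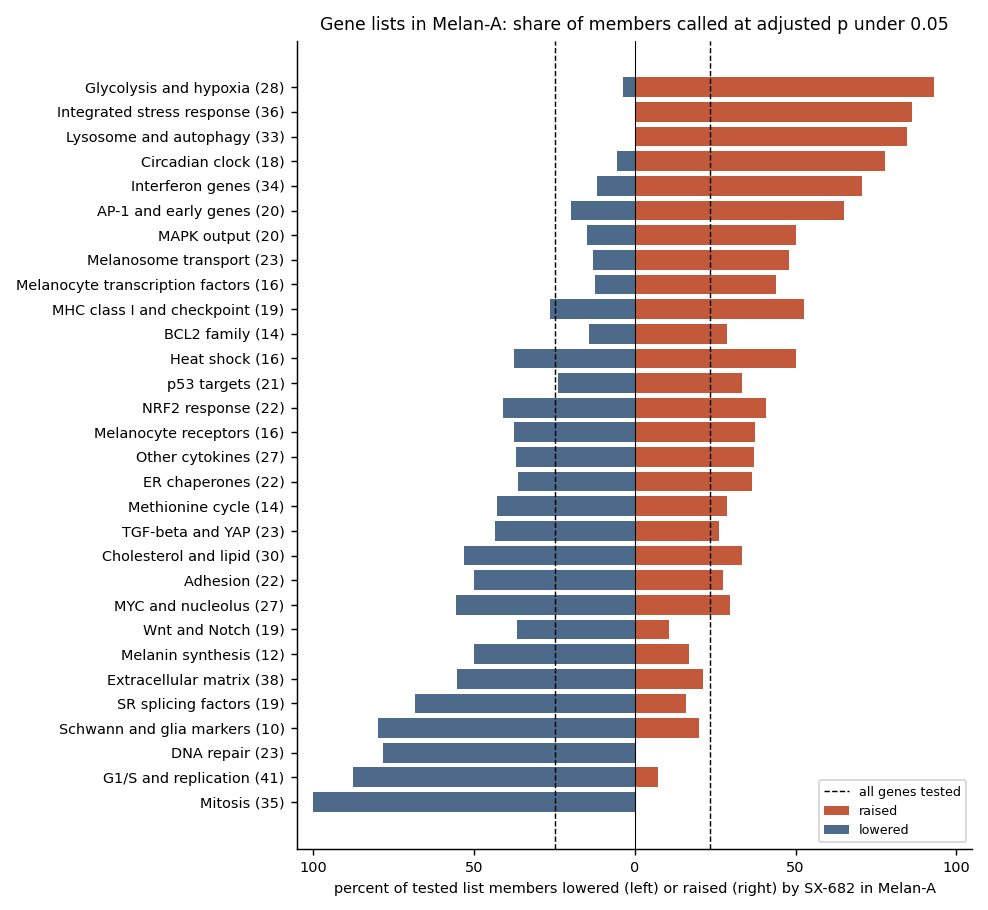
Percentage of the tested genes of each list that SX-682 raised (bars to the right) or lowered (bars to the left) in Melan-A at an adjusted p below 0.05, with the number of tested genes in brackets. The dashed lines mark the shares over all tested genes, 23.4% raised and 24.7% lowered. The mitosis list is lowered throughout, and the glycolysis and integrated stress response lists are almost all raised.

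The list of mitotic genes moved throughout in a single direction. All 35 tested mitotic regulators were lowered, with a median log2 fold change of -0.75 against 0.00 over all tested genes, and none was raised. Cenpf, a kinetochore protein (chr1:189640606-189688086 in GRCm38), was at 383 and 369 CPM in the controls and 159 and 162 CPM with SX-682 (log2 fold change -1.22, standard error 0.0257, edgeR adjusted p = 3.37e-25). Ccnb1, the cyclin that activates CDK1 for entry into mitosis (chr13:100778650-100786570), was at 191 and 183 CPM in the controls and 81.6 and 82.4 CPM with SX-682 (log2 fold change -1.19, standard error 0.0298, edgeR adjusted p = 2.01e-23). In both genes each treated library was below each control by more than the controls differed from one another. Ube2c, the ubiquitin-conjugating enzyme of the anaphase-promoting complex, fell by 1.14 (154 and 168 against 74.5 and 72.1 CPM). The kinesin Kif20a fell by 1.04, the kinase Plk1 by 1.0 and the checkpoint protein gene Mad2l1 by 1.0 on the log2 scale. The proliferation marker Mki67 was at 594 and 606 CPM in the controls and 359 and 357 CPM with SX-682 and fell by 0.75. The smallest fall of the list was that of Ndc80 (log2 fold change -0.3, standard error 0.0389, edgeR adjusted p = 1.36e-07).

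The mitotic fall was larger in Melan-A than in either B16 line for most of the list. The median change of the same 35 genes was -0.42 in B16F0 and -0.09 in B16F10, and 30 of the 35 lay below both B16 changes by direct test, beside 7.57% of all genes tested. Mki67 changed by 0.00 in B16F0 and 0.00 in B16F10 (difference from the mean B16 change -0.75, standard error 0.0291, edgeR adjusted p = 1.6e-18). For Cenpf the B16 changes were -0.32 in B16F0 and -0.09 in B16F10 (difference from the mean B16 change -1.02, standard error 0.0316, edgeR adjusted p = 7.93e-21), and for Ccnb1 -0.54 in B16F0 and -0.22 in B16F10 (difference from the mean B16 change -0.81, standard error 0.0365, edgeR adjusted p = 5.27e-17).

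Promoters of mitotic genes commonly carry CCAAT boxes, bound by NF-Y, and a cell cycle homology region (CHR). The promoters of 3 mitotic genes that fell are printed because all 3 hold a CCAAT box, in RefSeq sequence of GRCm38.p6, read 5′ to 3′ on the gene's strand and ending before RefSeq's first listed start, which can differ from the gene bounds of the count table's annotation. Capitals mark CCAAT on either strand and, in Ube2c, also the CHR letters TTTGAA as they read on the other strand.
Ccnb1 (chr13:100786487-100786606, minus strand): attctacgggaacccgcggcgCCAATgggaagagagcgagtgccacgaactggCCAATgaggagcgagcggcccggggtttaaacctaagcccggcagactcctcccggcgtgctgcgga
Cenpf (chr1:189688087-189688236, minus strand): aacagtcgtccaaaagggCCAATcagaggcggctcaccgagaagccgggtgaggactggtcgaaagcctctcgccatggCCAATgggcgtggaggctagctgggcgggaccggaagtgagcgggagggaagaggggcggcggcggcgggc
Ube2c (chr2:164769829-164769928, plus strand): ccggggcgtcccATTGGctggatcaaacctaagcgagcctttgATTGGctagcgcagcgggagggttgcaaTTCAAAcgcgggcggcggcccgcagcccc
Within the 250 bases before the start, on either strand, CCAAT was found in 21 of the 29 mitosis promoters at hand (72.4%) and in 36.5% of the 12315 promoters of tested genes. TTTGAA was found in 31.0% of the mitosis promoters and in 11% of all. Over the promoters of all genes called lowered the shares were 38.6% for CCAAT and 11.3% for TTTGAA. Other lists varied in CCAAT, with 7.69% for adhesion, 73.3% for the circadian clock, most of which rose, and 88.9% for chaperones of the endoplasmic reticulum. These shares are descriptions of the letters and were not tested.

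Genes of the G1/S transition and of DNA replication were also lowered. Of 41 tested genes 36 fell and 3 rose, with a median log2 fold change of -0.51. Of the 41, 6 lay above and 3 below both B16 changes, beside 6.9% and 7.57% of all genes tested. Against the mean B16 change 18 were above and 9 below, beside 17.1% and 18.7% of all. The cyclin E gene Ccne2 fell by 1.72 (38.6 and 33.8 against 11.1 and 10.8 CPM). Its locus overlaps Ints8 on the opposite strand, and since the strand setting of the counting is not given, reads of the 2 genes may be mixed. The atypical E2F repressor gene E2f8 fell by 1.59 (38.7 and 39.2 against 12.8 and 13.03 CPM), and Rrm2, which encodes a ribonucleotide reductase subunit, by 1.28 (119 and 119.6 against 47.7 and 50.6 CPM). The cyclin D1 gene Ccnd1 fell by 0.56 in Melan-A, less than in B16 (-0.79 in B16F0 and -1.11 in B16F10; difference from the mean B16 change 0.39, standard error 0.0279, edgeR adjusted p = 2.45e-12). The 3 genes that rose were Rb1 (0.18), Rbl2 (0.17) and the licensing factor gene Cdt1 (0.1). Without the first treated library Cdt1 no longer passed (0.07), and without the first control or the second treated library Rb1 no longer passed (0.11 and 0.17). Of 23 DNA repair genes 18 fell and 0 rose, among them Fanca (-0.94) and Exo1 (-0.87).

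Among 7 genes for cyclin-dependent kinase inhibitors 4 rose and 3 fell. Cdkn1a (p21) was at 192 and 192 CPM in the controls and 268 and 265 CPM with SX-682 (log2 fold change 0.48, standard error 0.0256, edgeR adjusted p = 1.27e-15) and Cdkn2b (p15) at 41.9 and 43.7 CPM in the controls and 74.7 and 71.8 CPM with SX-682 (log2 fold change 0.77, standard error 0.0552, edgeR adjusted p = 7.27e-12). Cdkn1b rose by 0.36, less than in B16 (0.99 in B16F0 and 0.91 in B16F10). Cdkn2a rose by 0.19, from 187 CPM, and had 0 counts in all 8 B16 libraries. In the other direction Cdkn2c (p18) was at 99.8 and 98.4 CPM in the controls and 43.6 and 40.3 CPM with SX-682 (log2 fold change -1.24, standard error 0.0436, edgeR adjusted p = 6.17e-20), a fall not shared in size by B16 (-0.07 in B16F0 and -0.2 in B16F10; difference from the mean B16 change -1.11, standard error 0.0534, edgeR adjusted p = 2.82e-16).

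Glycolysis and hypoxia genes rose in Melan-A and not, as a group, in B16. Of the 28 tested genes 26 were raised and 1 was lowered, with a median log2 fold change of 0.45, whereas the median was -0.16 in B16F0 and -0.08 in B16F10. By direct test 23 of the 28 lay above both B16 changes and 1, Ndrg1, below, beside 6.9% of all genes tested that lay above both and 7.57% below both.

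Glucose uptake and its first step were part of this rise. The glucose transporter gene Slc2a1 was at 164 and 167 CPM in the controls and 286 and 289 CPM with SX-682 (log2 fold change 0.8, standard error 0.0276, edgeR adjusted p = 4.09e-20), and changed by -0.31 in B16F0 and -0.21 in B16F10. Slc2a3, a transporter of higher affinity, was at 0.822 and 0.716 CPM in the controls and 1.66 and 1.97 CPM with SX-682 (log2 fold change 1.24, standard error 0.179, edgeR adjusted p = 8.74e-07). Hk2, which phosphorylates glucose (chr6:82725025-82774454), was at 248 and 244 CPM in the controls and 384 and 389.5 CPM with SX-682 (log2 fold change 0.65, standard error 0.025, edgeR adjusted p = 4.76e-19). In both B16 lines Hk2 fell (-0.66 in B16F0 and -0.65 in B16F10), and the difference was past the test (difference from the mean B16 change 1.3, standard error 0.0314, edgeR adjusted p = 2.34e-23). All treated Melan-A libraries were above the controls for these 3 genes.

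Along the pathway the changes were smaller and near uniform in direction. Pfkp rose by 0.51, Aldoa by 0.6, Gpi1 by 0.41, Pgk1 by 0.32, Ldha by 0.29, Gapdh by 0.28, Eno1 by 0.17 and Pkm by 0.12 on the log2 scale. Ldha, which converts pyruvate to lactate, was at 1146 and 1181 CPM in the controls and 1436 and 1404 CPM with SX-682 (log2 fold change 0.29, standard error 0.019, edgeR adjusted p = 1.39e-13) and changed by -0.38 in B16F0 and -0.35 in B16F10. Several of these genes have processed pseudogenes in the mouse genome, to which reads can be split. Pdk1, which restrains entry of pyruvate into the citric acid cycle, rose by 0.81 (74.8 and 73.4 against 131 and 129.5 CPM).

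Several hypoxia-responsive genes outside glycolysis rose, and Epas1 fell. Hif1a itself was at 239.6 and 236 CPM in the controls and 448 and 446 CPM with SX-682 (log2 fold change 0.91, standard error 0.0266, edgeR adjusted p = 8.32e-22), and Epas1, which encodes HIF-2α, fell by 0.5. Bnip3, a mitophagy receptor, was at 25.9 and 23.8 CPM in the controls and 50.1 and 50.6 CPM with SX-682 (log2 fold change 1.02, standard error 0.0474, edgeR adjusted p = 4.14e-17), against -0.32 in B16F0 and 0.3 in B16F10. Ero1l, an oxidase of the endoplasmic reticulum, rose by 1.06, and the carbonic anhydrase gene Car9 by 0.73 (8.19 and 7.85 against 13.3 and 13.2 CPM). Ankrd37 was at 3.59 and 3.47 CPM in the controls and 6.48 and 6.65 CPM with SX-682 (log2 fold change 0.9, standard error 0.164, edgeR adjusted p = 3.27e-05), with changes of -1.27 in B16F0 and -0.55 in B16F10. Hilpda, which inhibits lipolysis at lipid droplets, was at 22.2 and 22.5 CPM in the controls and 39.1 and 40.97 CPM with SX-682 (log2 fold change 0.84, standard error 0.0577, edgeR adjusted p = 2.82e-13) in Melan-A and fell in both B16 lines (-1.2 in B16F0 and -0.87 in B16F10). Vegfa, the angiogenic growth factor, rose by 0.8 (80.8 and 80.5 against 139.9 and 141 CPM), against -0.44 in B16F0 and 0.61 in B16F10. Egln3 did not pass (log2 fold change -0.69, standard error 0.333, edgeR adjusted p = 0.0905).

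**Figure D2:**
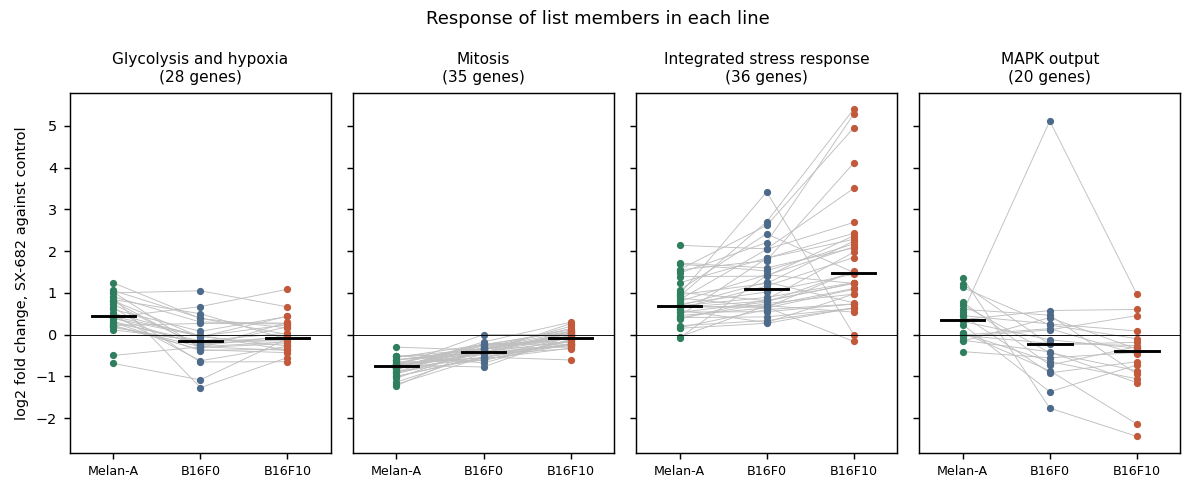
Log2 fold change (SX-682 over control) of each tested gene of 4 lists in Melan-A, B16F0 and B16F10; each point is a gene, grey lines join the same gene and black bars mark the median of the list. The glycolysis and MAP kinase medians are above 0 in Melan-A (0.45 and 0.34) and below 0 in both B16 lines, and the mitosis median is lowest in Melan-A (-0.75).

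The promoters of Bnip3, Pgk1 and Ldha are shown for the core of the hypoxia response element, ACGTG on either strand, in capitals. Where the core is part of a palindromic E-box, CACGTG, which holds it on both strands, the whole palindrome is in capitals.
Bnip3 (chr7:138909507-138909626, minus strand): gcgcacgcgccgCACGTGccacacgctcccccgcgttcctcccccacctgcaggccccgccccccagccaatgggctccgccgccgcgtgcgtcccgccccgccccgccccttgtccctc
Pgk1 (chrX:106186940-106187099, plus strand): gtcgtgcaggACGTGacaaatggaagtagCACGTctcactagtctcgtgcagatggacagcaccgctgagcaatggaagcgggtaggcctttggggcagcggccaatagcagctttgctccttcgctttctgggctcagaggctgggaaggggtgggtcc
Ldha (chr7:46845654-46845803, plus strand): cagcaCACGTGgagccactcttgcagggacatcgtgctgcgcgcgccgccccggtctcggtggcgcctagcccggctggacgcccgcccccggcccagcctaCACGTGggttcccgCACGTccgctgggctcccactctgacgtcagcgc
ACGTG was present in the 250 bases before the start in 13 of the 24 promoters of this list (54.2%), beside 20.9% of all promoters of tested genes. A high share was not particular to this list. The core was in 9 of 15 clock, 9 of 19 melanosome transport and 11 of 25 lysosome and autophagy promoters. In the interferon list it was in 1 of 25. These shares were not tested. ACGTG was also present in 29.2% of the 1017 promoters of genes whose Melan-A change lay above both B16 changes, and in 20.3% of the 1102 below both. The palindrome CACGTG was present in 11.9%, 7.35% and, over all tested genes, 8.08%.

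Immediate early genes of the ERK pathway included several with opposite directions in the lines. Egr1, a zinc finger transcription factor induced by ERK, was at 243 and 254 CPM in the controls and 638 and 644 CPM with SX-682 (log2 fold change 1.36, standard error 0.0325, edgeR adjusted p = 6.58e-24), a 2.57-fold rise. It fell in both B16 lines (-1.76 in B16F0 and -2.44 in B16F10; difference from the mean B16 change 3.46, standard error 0.0847, edgeR adjusted p = 2.92e-23). Egr2, its paralog, was at 10.6 and 12.3 CPM in the controls and 27.8 and 30.8 CPM with SX-682 (log2 fold change 1.35, standard error 0.0998, edgeR adjusted p = 1.47e-12). In B16 it was at 0.0631 CPM in B16F0 and 0.327 CPM in B16F10 controls and at or under the floor of 3 counts in treated B16F0, so that no fold is given there. Nr4a3, an orphan nuclear receptor (chr4:48045153-48086447), was at 7.2 and 5.99 CPM in the controls and 32.4 and 31.8 CPM with SX-682 (log2 fold change 2.29, standard error 0.0585, edgeR adjusted p = 3.38e-23), a 4.87-fold rise, and fell in B16 (-0.15 in B16F0 and -0.75 in B16F10). Its relative Nr4a1 (180.0 and 188 against 299.7 and 305 CPM) rose by 0.72. For each of these genes the groups did not overlap.

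Of the 20 tested early genes 13 rose and 4 fell, with a median log2 fold change of 0.56, and 8 lay above both B16 changes and 2 below. Junb was at 128 and 127 CPM in the controls and 339 and 342 CPM with SX-682 (log2 fold change 1.42, standard error 0.0388, edgeR adjusted p = 1.81e-22), and it also rose in B16 (1.01 in B16F0 and 1.25 in B16F10). Fos (40.2 and 40.5 against 62.1 and 55.6 CPM) and Fosb (5.5 and 5.48 against 8.36 and 8.78 CPM) rose by 0.55 and 0.64. Jun went the other way: it was at 194 and 196 CPM in the controls and 117 and 119 CPM with SX-682 (log2 fold change -0.72, standard error 0.033, edgeR adjusted p = 2.61e-17) in Melan-A, against 0.86 in B16F0 and 0.35 in B16F10 (difference from the mean B16 change -1.33, standard error 0.0409, edgeR adjusted p = 6.88e-21). Jund fell by 0.21 and Ier5 by 0.21.

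Genes of MAP kinase output and feedback inhibition were divided between raised genes and genes that fell or were not called. In the list of 20 tested genes, which shares Egr1 with the early genes, 10 rose and 3 fell, with a median of 0.34 against -0.22 in B16F0 and -0.39 in B16F10, and 9 lay above both B16 changes and 0 below. Dusp6, the phosphatase that removes the activating phosphates from ERK, was at 262 and 267 CPM in the controls and 435 and 431 CPM with SX-682 (log2 fold change 0.71, standard error 0.025, edgeR adjusted p = 6.64e-20) and changed by -0.43 in B16F0 and -0.86 in B16F10 (difference from the mean B16 change 1.36, standard error 0.0325, edgeR adjusted p = 2.07e-23). The nuclear phosphatase gene Dusp4 rose by 0.61 (286 and 289 against 436 and 438 CPM). Spry1 was at 51.7 and 51.95 CPM in the controls and 113 and 114 CPM with SX-682 (log2 fold change 1.13, standard error 0.0495, edgeR adjusted p = 1.06e-17), and Spry2 rose by 0.46 (87.9 and 88.8 against 122 and 121 CPM), both inhibitors of receptor tyrosine kinase signalling. Spry4 (log2 fold change 0.04, standard error 0.0711, edgeR adjusted p = 0.677) did not pass in Melan-A, where its B16 changes were -0.87 in B16F0 and -2.14 in B16F10. Lgals3, the lectin galectin-3, was at 175 and 173 CPM in the controls and 406 and 399.9 CPM with SX-682 (log2 fold change 1.21, standard error 0.0216, edgeR adjusted p = 1.41e-26). Rgs2, which speeds GTP hydrolysis by Gq, rose by 0.62 (5.46 and 5.59 against 8.6 and 8.35 CPM) and fell in both B16 lines (-1.03 in B16F0 and -2.04 in B16F10). Eps8, an adaptor of growth factor receptors and actin, rose by 0.49 (475 and 485 against 674 and 676 CPM), against -1.2 in B16F0 and -1.01 in B16F10. The 3 genes of the list that fell were Spred1 (-0.41), Etv5 (-0.13) and Epha2 (-0.15), the last no longer past the test without the first treated library (-0.12).

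**Figure D3:**
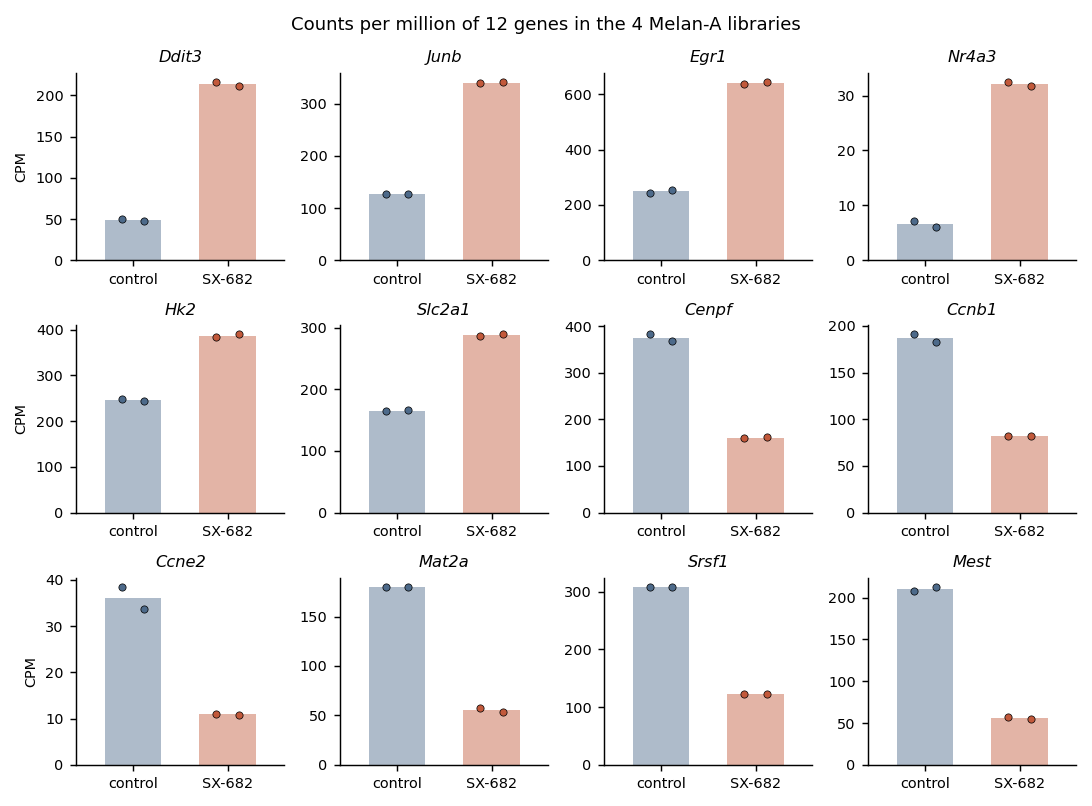
CPM (axes from 0) of 12 genes in the 2 control and 2 SX-682 libraries of Melan-A; each point is a library and each bar the mean of its group. Both SX-682 points lie above both control points for the genes that rose, such as Nr4a3 and Hk2, and below them for those that fell, such as Cenpf and Mest.

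The integrated stress response, in which the transcription factor ATF4 drives amino acid synthesis and import and the proapoptotic factor CHOP, had a positive median change in all lines, the lowest in Melan-A. In Melan-A 31 of 36 tested genes rose and 0 fell, with a median of 0.69, against medians of 1.09 in B16F0 and 1.47 in B16F10. By direct test 18 of the 36 lay below both B16 changes and 0 above. Ddit3, which encodes CHOP (chr10:127290774-127296288), was at 49.8 and 47.2 CPM in the controls and 216 and 212 CPM with SX-682 (log2 fold change 2.14, standard error 0.0362, edgeR adjusted p = 4.59e-27), a 4.41-fold rise. Atf3 was at 41.3 and 41.04 CPM in the controls and 133 and 137 CPM with SX-682 (log2 fold change 1.72, standard error 0.0369, edgeR adjusted p = 5.59e-25), and Atf4 at 371 and 388 CPM in the controls and 635 and 626 CPM with SX-682 (log2 fold change 0.73, standard error 0.0236, edgeR adjusted p = 8.11e-21). Trib3, a pseudokinase induced by CHOP, was at 108 and 112 CPM in the controls and 327 and 321 CPM with SX-682 (log2 fold change 1.56, standard error 0.029, edgeR adjusted p = 3.72e-26) and changed by 2.62 in B16F0 and 4.95 in B16F10 (difference from the mean B16 change -2.23, standard error 0.0392, edgeR adjusted p = 1.03e-26). Of the amino acid genes, the asparagine synthetase gene Asns rose by 0.96 (277 and 278 against 537 and 540.1 CPM), the cystine transporter gene Slc7a11 by 0.84 (50.4 and 50.4 against 88.8 and 91.3 CPM) and the transporter heavy chain gene Slc3a2 by 1.69 (244 and 248 against 792 and 793 CPM). The serine synthesis genes Psat1 and Psph rose by 0.15 and 0.53. Atf5, Vldlr, Fgf21, Slc7a3 and Cth did not pass.

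The Atf3 promoter is given as the example of the group, with the letters TTGCATCA in capitals, the other-strand form of the ATF4 element searched, TGATGNAA.
Atf3 (chr1:191183334-191183453, minus strand): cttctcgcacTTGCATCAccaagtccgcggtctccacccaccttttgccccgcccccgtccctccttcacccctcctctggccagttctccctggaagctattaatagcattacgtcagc
This element was present in 9 of 29 promoters of the list (31.0%) and in 2.04% of all promoters of tested genes.

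Genes of the other arms of the unfolded protein response were mixed. Of 22 chaperone and sensor genes of the endoplasmic reticulum 8 rose and 8 fell, with a median of -0.01, and 10 lay above and 2 below both B16 changes. Hspa5, which encodes the chaperone BiP, was at 912 and 909.6 CPM in the controls and 1070 and 1056 CPM with SX-682 (log2 fold change 0.22, standard error 0.0183, edgeR adjusted p = 1.48e-11), against -0.39 in B16F0 and -0.31 in B16F10. Xbp1 rose by 0.52 (82.1 and 86.5 against 121 and 122 CPM) and Dnajb9 by 0.84 (30.02 and 29.2 against 54.1 and 51.7 CPM), whereas both fell in B16, with changes of -0.67 in B16F0 and -0.25 in B16F10 for Xbp1 and of -0.52 in B16F0 and -0.28 in B16F10 for Dnajb9. Dnajc3 (-0.49) and Manf (-0.43) fell in Melan-A. Of 16 cytosolic heat shock genes 8 rose and 6 fell. Hspa1b was at 10.04 and 8.77 CPM in the controls and 42.9 and 36.97 CPM with SX-682 (log2 fold change 2.09, standard error 0.0748, edgeR adjusted p = 9.94e-20), but Hspa1a and Hspa1b are near-identical copies whose reads can be split. Dnaja1, a cochaperone gene, fell by 0.86 (321 and 299 against 168 and 172 CPM).

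Targets of p53 showed no common direction. Of 21 tested genes 7 rose and 5 fell, and 5 lay below both B16 changes and 0 above. Gadd45a was at 86.99 and 83.5 CPM in the controls and 197 and 196 CPM with SX-682 (log2 fold change 1.21, standard error 0.0297, edgeR adjusted p = 1.56e-23), less raised than in B16 (2.38 in B16F0 and 2.84 in B16F10; difference from the mean B16 change -1.4, standard error 0.0376, edgeR adjusted p = 3.12e-22). Mdm2 did not pass in Melan-A (log2 fold change 0.06, standard error 0.0321, edgeR adjusted p = 0.153), and its B16 changes were 0.7 in B16F0 and 0.67 in B16F10. In the BCL2 family 4 of 14 genes rose and 2 fell. The proapoptotic Bbc3 (PUMA) was at 10.5 and 10.6 CPM in the controls and 28.04 and 27.9 CPM with SX-682 (log2 fold change 1.41, standard error 0.0592, edgeR adjusted p = 3.95e-18), against 2.12 in B16F0 and 2.08 in B16F10. Bcl2l1 rose by 0.54 (117 and 118 against 173 and 168 CPM), Mcl1 fell by 0.3 (201 and 198 against 163 and 162 CPM) and Bak1 by 0.53 (62.1 and 64.1 against 44.6 and 42.7 CPM).

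Most interferon-stimulated genes rose. Of 34 tested genes 24 rose and 4 fell, with a median of 0.40, and 8 lay above and 3 below both B16 changes. Against the mean B16 change the balance was the other way, with 9 above and 13 below, beside 17.1% and 18.7% of all genes tested. Ifit3, which restrains translation of foreign RNA, was at 154 and 151 CPM in the controls and 402 and 394 CPM with SX-682 (log2 fold change 1.38, standard error 0.0309, edgeR adjusted p = 1.4e-24), against 0.56 in B16F0 and 0.86 in B16F10. Reads of Ifit3 and its near-identical copy Ifit3b can be split. Mx1 was at 2.55 and 2.29 CPM in the controls and 5.58 and 6.29 CPM with SX-682 (log2 fold change 1.3, standard error 0.182, edgeR adjusted p = 5.69e-07), and Mx2, annotated as a polymorphic pseudogene, at 9.15 and 7.85 CPM in the controls and 40.3 and 41.5 CPM with SX-682 (log2 fold change 2.27, standard error 0.0868, edgeR adjusted p = 4.67e-19). Of the signal transducers Stat2 rose by 0.59 (64.97 and 66.6 against 99.9 and 98.00 CPM), against -0.16 in B16F0 and 0.05 in B16F10, Irf9 by 0.62 and Irf7 by 0.8. The feedback inhibitor gene Socs3 rose by 0.28 and fell in B16 (-0.92 in B16F0 and -0.29 in B16F10). Ifi27 (-0.13), Parp14 (-0.42), Gbp2 (-0.24) and Ifitm3 (-0.07) were called lower. Without the second treated library Parp14 changed by -0.27 and Gbp2, no longer past the test, by -0.17, and the small change of Ifitm3 passed or missed the threshold with the settings.

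The upstream letters of Ifit3 are given with both matches of the core of the interferon-stimulated response element in capitals, which is GAAA followed after any 2 bases by another GAAA and here reads on the other strand.
Ifit3 (chr19:34583359-34583528, plus strand): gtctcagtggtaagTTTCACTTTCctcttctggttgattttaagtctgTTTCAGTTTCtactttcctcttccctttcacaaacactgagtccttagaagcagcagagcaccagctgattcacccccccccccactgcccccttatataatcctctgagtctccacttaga
This core was present in 12 of 25 promoters of the interferon list (48.0%) and in 2.53% of all promoters of tested genes.

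Of 19 antigen presentation and checkpoint genes 10 rose and 5 fell, with a median of 0.39. Tap1, the peptide transporter, was at 13.3 and 12.5 CPM in the controls and 24.7 and 26.6 CPM with SX-682 (log2 fold change 0.99, standard error 0.0557, edgeR adjusted p = 3.12e-15), and Cd274, which encodes PD-L1, at 4.9 and 5.39 CPM in the controls and 10.4 and 10.1 CPM with SX-682 (log2 fold change 0.99, standard error 0.0803, edgeR adjusted p = 1.15e-11), less raised than in B16 (1.66 in B16F0 and 1.91 in B16F10). H2-D1 was at 47.97 and 48.1 CPM in the controls and 64.05 and 65.1 CPM with SX-682, and B2m rose by 0.09 (396 and 406 against 434 and 420.2 CPM).

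The circadian clock list was raised for 14 of 18 genes and lowered for 1, with a median of 0.65. Nr1d1, a repressor of the clock loop (REV-ERBα), was at 17.3 and 16.2 CPM in the controls and 64.8 and 67.4 CPM with SX-682 (log2 fold change 1.98, standard error 0.0494, edgeR adjusted p = 1.85e-23), and rose further in B16 (2.78 in B16F0 and 2.77 in B16F10). Bhlhe40 (DEC1), which is also a hypoxia-responsive repressor, was at 254 and 258 CPM in the controls and 609.9 and 604 CPM with SX-682 (log2 fold change 1.24, standard error 0.0257, edgeR adjusted p = 2.95e-25), against -0.7 in B16F0 and -0.03 in B16F10 (difference from the mean B16 change 1.61, standard error 0.033, edgeR adjusted p = 4.16e-25). Its paralog Bhlhe41 rose by 1.74 (3.57 and 3.4 against 11.8 and 11.5 CPM), Dbp by 0.95 and Per1 by 0.78. Clock was the gene that fell (log2 fold change -0.34, standard error 0.0451, edgeR adjusted p = 2.56e-07).

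Lysosome and autophagy genes showed a broad, shallow rise. Of 33 tested genes 28 rose and 0 fell, with a median of 0.23, and 11 lay above both B16 changes and 1 below. Neu1, the lysosomal sialidase, was at 27.3 and 30.6 CPM in the controls and 49.9 and 49.1 CPM with SX-682 (log2 fold change 0.77, standard error 0.0479, edgeR adjusted p = 3.03e-14), and Naglu, which degrades heparan sulphate, at 165 and 169.5 CPM in the controls and 296 and 295 CPM with SX-682 (log2 fold change 0.82, standard error 0.0251, edgeR adjusted p = 2.36e-21). The autophagy receptor gene Sqstm1 rose by 0.68, less than in B16 (1.53 in B16F0 and 1.38 in B16F10), and the proton pump subunit genes Atp6v1b2 and Atp6v1a by 0.63 and 0.22. Gpnmb, a melanosome and lysosome glycoprotein at 3075 CPM in the controls, rose by 0.12 (standard error 0.0143), against -0.15 in B16F0 and -0.32 in B16F10. The macrophage and lysosome glycoprotein gene Cd68 was at 15.9 and 16.1 CPM in the controls and 43.9 and 45.3 CPM with SX-682 (log2 fold change 1.48, standard error 0.0647, edgeR adjusted p = 1.04e-17); of the other 4 tested blood cell markers 0 rose and 1, Lyz2, was called lower (-0.62, no longer past the test without the second treated library at -0.56), and Ptprc was at 0.255 and 0.055 against 0.196 and 0.107 CPM.

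Cholesterol and lipid genes were divided, and those that lay outside both B16 changes lay above them. Of 30 lipid genes 10 rose and 16 fell, with a median of -0.13, and 15 lay above both B16 changes and 0 below. Hmgcs1, at the head of the pathway, was at 80.4 and 78.2 CPM in the controls and 40.2 and 39.7 CPM with SX-682 (log2 fold change -0.99, standard error 0.0373, edgeR adjusted p = 3.43e-19), against -1.48 in B16F0 and -1.76 in B16F10. Idi1 fell by 0.68 (19.6 and 17.7 against 11.5 and 11.8 CPM), and Cyp51 rose by 0.17 (109 and 106 against 123 and 119 CPM), against -0.59 in B16F0 and -0.77 in B16F10. Abca1, which exports cholesterol, rose by 0.8 (68.99 and 68.5 against 118 and 122 CPM).

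Among oxidative stress genes the direction of single genes parted from B16. In the NRF2 list 9 of 22 rose and 9 fell, and 8 lay below both B16 changes and 1 above. Hmox1, haem oxygenase, was at 284 and 291 CPM in the controls and 626 and 632 CPM with SX-682 (log2 fold change 1.13, standard error 0.0258, edgeR adjusted p = 2.31e-24), and Nfe2l2, which encodes NRF2, rose by 0.59 (98.3 and 102 against 152 and 149.5 CPM). Nqo1, a quinone reductase, was at 0.649 and 0.451 CPM in the controls and 0.14 and 0.107 CPM with SX-682 (log2 fold change -2.14, standard error 0.397, edgeR adjusted p = 3.85e-05), a 4.41-fold fall, and rose in both B16 lines (1.05 in B16F0 and 1.54 in B16F10; difference from the mean B16 change -3.43, standard error 0.49, edgeR adjusted p = 1.35e-06). Gclm, a subunit of the first enzyme of glutathione synthesis, fell by 0.29 (126 and 122 against 104 and 98.6 CPM), against 0.87 in B16F0 and 0.89 in B16F10.

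Of the methionine cycle genes 4 of 14 rose and 6 fell. Mat2a, which makes S-adenosylmethionine, was at 180.1 and 180.4 CPM in the controls and 57.6 and 53.8 CPM with SX-682 (log2 fold change -1.7, standard error 0.0332, edgeR adjusted p = 8.84e-26), less lowered than in B16 (-2.0 in B16F0 and -2.83 in B16F10). Amd1 fell by 0.85 (65.5 and 63.6 against 35.4 and 36.2 CPM). In the splicing factor list 13 of 19 fell and 3 rose, with a median of -0.29. Srsf1 was at 309 and 307 CPM in the controls and 123 and 122 CPM with SX-682 (log2 fold change -1.33, standard error 0.0263, edgeR adjusted p = 1.03e-25) and Srsf2 fell by 1.2 (209 and 201 against 89.05 and 89.5 CPM), whereas the kinase genes Clk1 and Clk4, whose products phosphorylate SR proteins, rose by 0.57 and 0.65. In the MYC and nucleolus list 8 of 27 rose and 15 fell. Myc was at 60.1 and 62.3 CPM in the controls and 92.8 and 92.01 CPM with SX-682 (log2 fold change 0.59, standard error 0.0362, edgeR adjusted p = 2.06e-14), against -0.11 in B16F0 and -0.48 in B16F10, and so were raised its antagonists Mnt (0.67) and Mxi1 (0.95), while the nucleolar Dkc1 (-0.72) and Nolc1 (-0.53) fell.

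Pigment cell genes did not move as one group. Of 12 genes of melanin synthesis 2 rose and 6 fell, with a median of -0.30, and 4 lay above and 1 below both B16 changes. Tyr, the rate-limiting enzyme, was at 0.892 and 0.759 CPM in the controls and 0.309 and 0.253 CPM with SX-682 (log2 fold change -1.55, standard error 0.25, edgeR adjusted p = 4.96e-06). Tyrp1 was at 105.4 and 108 CPM in the controls and 143 and 143 CPM with SX-682 (log2 fold change 0.42, standard error 0.0172, edgeR adjusted p = 2.59e-18), the opposite sign to B16 (-0.14 in B16F0 and -0.86 in B16F10). Dct, which acts beside TYRP1, was at 358 and 351 CPM in the controls and 274 and 268 CPM with SX-682 (log2 fold change -0.39, standard error 0.0163, edgeR adjusted p = 3.78e-18), and Mlana at 114 and 119 CPM in the controls and 99.7 and 102 CPM with SX-682 (log2 fold change -0.2, standard error 0.0288, edgeR adjusted p = 5.94e-07). Slc24a5, the melanosomal exchanger, fell by 1.88 (0.533 and 0.583 against 0.14 and 0.16 CPM), and Pmel did not pass (log2 fold change -0.02, standard error 0.048, edgeR adjusted p = 0.793).

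The Tyrp1 promoter is shown because Tyrp1 rose while Tyr and Dct fell; capitals mark CATGTG, the core of the M-box bound by MITF.
Tyrp1 (chr4:80834153-80834212, plus strand): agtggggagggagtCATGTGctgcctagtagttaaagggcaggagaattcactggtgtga
CATGTG or CACATG, its other-strand form, was present in 6 of the 8 promoters of this list (75.0%) and in 7.86% of all promoters of tested genes.

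Of the 16 tested transcription factors of the melanocyte lineage 7 rose and 2 fell. Above both B16 changes lay 2 and below both 2, and against the mean B16 change 3 were above and 6 below. Mitf was at 103 and 101 CPM in the controls and 78.02 and 80.5 CPM with SX-682 (log2 fold change -0.36, standard error 0.0303, edgeR adjusted p = 1.98e-11), a smaller fall than in B16 (-2.11 in B16F0 and -1.14 in B16F10; difference from the mean B16 change 1.26, standard error 0.0367, edgeR adjusted p = 1.99e-21). Sox10 was at 655 and 685 CPM in the controls and 744 and 753 CPM with SX-682 (log2 fold change 0.16, standard error 0.0256, edgeR adjusted p = 4.71e-06), against -0.33 in B16F0 and -0.29 in B16F10, and Pax3 rose by 0.67 (250.5 and 252 against 399 and 399 CPM). Of 23 genes of melanosome biogenesis and transport 11 rose and 3 fell, and 6 lay above both B16 changes and 0 below. Lyst, which governs the size of lysosome-related organelles, rose by 0.87 (45.8 and 48.1 against 86.2 and 85.5 CPM), against 0.57 in B16F0 and 0.27 in B16F10. Myo5a, the motor itself, fell by 0.38 (192 and 184 against 145 and 144 CPM), less than in B16 (-0.76 in B16F0 and -0.72 in B16F10). Of 16 growth factor receptor genes 6 rose and 6 fell. Among those called raised was Kit, close to the floor in the controls, which no longer passed under DESeq2 (1.43) or in a fit of the Melan-A libraries alone (1.41). Ngfr, the low-affinity neurotrophin receptor of neural crest cells, was at 0.0579 and 0.044 CPM in the controls and 0.21 and 0.253 CPM with SX-682 (log2 fold change 2.15, standard error 0.449, edgeR adjusted p = 0.000171), which is 5 and 4 counts in the controls and 15 and 19 counts with SX-682. Erbb3, a receptor for neuregulin, fell by 0.35 (249 and 248 against 194 and 195 CPM).

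Schwann cell and glial genes were lowered: 8 of 10 fell and 2 rose, with a median of -0.70. Mbp, a myelin protein gene, was at 441 and 459.5 CPM in the controls and 276 and 276 CPM with SX-682 (log2 fold change -0.7, standard error 0.0291, edgeR adjusted p = 2.79e-18), and S100b at 243 and 240.4 CPM in the controls and 135 and 132 CPM with SX-682 (log2 fold change -0.86, standard error 0.0326, edgeR adjusted p = 4.25e-19). Pmp22 fell by 0.95 (4.2 and 4.97 against 2.19 and 2.56 CPM), against -0.3 in B16F0 and 0.05 in B16F10. The 2 genes that rose were Ngfr and Egr2. Fewer cells of a kind and less RNA of that kind per cell cannot be told apart in these bulk libraries, and the part of these genes in other changes was not tested.

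Extracellular matrix genes fell more often than they rose. Of 38 tested 8 rose and 21 fell, with a median of -0.23, and 8 lay below and 2 above both B16 changes. The basement membrane collagen gene Col4a1 was at 3.21 and 3.54 CPM in the controls and 1.5 and 1.23 CPM with SX-682 (log2 fold change -1.31, standard error 0.101, edgeR adjusted p = 3.91e-12), with a rise in both B16 lines (0.14 in B16F0 and 0.36 in B16F10; difference from the mean B16 change -1.56, standard error 0.102, edgeR adjusted p = 2.83e-13), and its partner Col4a2 fell by 0.92 (5.01 and 5.68 against 3.21 and 2.45 CPM). The laminin gene Lamb1 was at 30.7 and 31.4 CPM in the controls and 13.4 and 14.1 CPM with SX-682 (log2 fold change -1.18, standard error 0.0417, edgeR adjusted p = 8.04e-20), against 0.14 in B16F0 and 0.03 in B16F10. Col1a2 fell by 1.51 (0.614 and 0.914 against 0.337 and 0.20 CPM), while Col1a1 did not pass (log2 fold change -0.01, standard error 0.0557, edgeR adjusted p = 0.891). Decorin (Dcn) fell by 1.36 (2.77 and 2.23 against 0.856 and 1.09 CPM). Fn1, the fibronectin gene and one of the most abundant transcripts of the line, was at 14800 and 14910 CPM in the controls and 16600 and 16830 CPM with SX-682 (log2 fold change 0.17, standard error 0.0146, edgeR adjusted p = 3.78e-11), less raised than in B16 (0.71 in B16F0 and 0.83 in B16F10). The fibroblast marker list shares genes with this one, and of its 9 tested members 2 rose and 4 fell.

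Targets of TGF-β and YAP signalling and adhesion genes followed with mixed changes. Of 23 pathway genes 6 rose and 10 fell, and 8 lay below both B16 changes and 1 above. Ccn2 (connective tissue growth factor), a YAP target, was at 40.6 and 37.3 CPM in the controls and 12.8 and 12.3 CPM with SX-682 (log2 fold change -1.63, standard error 0.0653, edgeR adjusted p = 1.36e-18), against 0.94 in B16F0 and -0.81 in B16F10. Ccn1 was at 449.7 and 450.2 CPM in the controls and 410.5 and 410.3 CPM with SX-682 (log2 fold change -0.13, standard error 0.022, edgeR adjusted p = 7.38e-06), against 2.74 in B16F0 and 0.84 in B16F10, and Ankrd1 fell by 0.73 (16.9 and 17.5 against 10.1 and 10.7 CPM). Tead1 fell by 0.57 (149 and 154 against 103 and 101 CPM), against 0.47 in B16F0 and 0.1 in B16F10. Of 22 adhesion genes 6 rose and 11 fell, Itgb8 by 1.01 (43.3 and 42.00 against 20.9 and 21.5 CPM) and Itgb4 by 0.95 (3.0 and 2.85 against 1.6 and 1.44 CPM). In the Wnt and Notch list 2 of 19 rose and 7 fell, and Notch1 fell by 0.71 (3.07 and 2.95 against 1.82 and 1.86 CPM), against 0.33 in B16F0 and 0.23 in B16F10.

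Secreted factors outside the CXCR2 ligands were divided, with 10 of 27 raised and 10 lowered. The cytokine gene Mif rose by 0.38 (289 and 308 against 389 and 389 CPM) and Spp1 (osteopontin) by 0.54 (424 and 419.6 against 616 and 613 CPM), against -0.82 in B16F0 and -0.77 in B16F10. Kitl, the ligand of KIT, fell by 0.78 (24.7 and 24.5 against 14.1 and 14.6 CPM). In the list of stemness and TFCP2 family genes, 6 of 13 rose and 3 fell. The chromatin protein gene Hmga1 was at 129.9 and 136 CPM in the controls and 284 and 280.5 CPM with SX-682 (log2 fold change 1.09, standard error 0.0273, edgeR adjusted p = 2.24e-23), against 0.17 in B16F0 and 0.14 in B16F10. Tfcp2l1 was at 8.06 and 9.36 CPM in the controls and 13.6 and 15.2 CPM with SX-682 (log2 fold change 0.73, standard error 0.12, edgeR adjusted p = 7.52e-06), less raised than in B16 (2.18 in B16F0 and 4.99 in B16F10), where the B16F10 controls were at or under the floor.

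Rises were ranked by size among genes with a mean of at least 1 log2 CPM over the 4 Melan-A libraries whose groups did not overlap. Controls had to be over the floor. The 10 largest were Angptl6, Efcab6, Nr4a3, Mx2, Ddit3, Hspa1b, Akr1b7, Cox6a2, Nr1d1 and the predicted gene Gm19410. Angptl6, Efcab6, Akr1b7, Cox6a2 and Gm19410 were under this level in both controls and met it only through the treated libraries. Angptl6, a secreted angiopoietin-like factor, was at 0.359 and 0.727 CPM in the controls and 4.22 and 3.65 CPM with SX-682 (log2 fold change 2.84, standard error 0.184, edgeR adjusted p = 8.19e-14). Efcab6, an EF-hand protein gene, was at 0.649 and 0.803 CPM in the controls and 4.39 and 4.28 CPM with SX-682 (log2 fold change 2.57, standard error 0.252, edgeR adjusted p = 5.98e-10). Gm19410 was at 0.313 and 0.33 CPM in the controls and 3.73 and 3.84 CPM with SX-682 (log2 fold change 3.55, standard error 0.328, edgeR adjusted p = 2.72e-10), an 11.7-fold rise. Cox6a2, a muscle-type subunit of cytochrome c oxidase, rose by 2.04 (0.88 and 0.792 against 3.28 and 3.6 CPM). Reads of Akr1b7 (0.985 and 1.55 against 5.44 and 5.09 CPM) can be split with other members of its aldo-keto reductase family.

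The 10 largest falls, at the same mean level and with treated libraries over the floor, were Cfap70, Epyc, Lum, Fmod, Abca9, Npr3, Mest and 3 predicted genes. Among them Cfap70, Epyc, Lum and Abca9 met the level only through the controls. Cfap70, a cilium and flagellum protein gene, was at 5.77 and 5.41 CPM in the controls and 0.856 and 0.986 CPM with SX-682 (log2 fold change -2.6, standard error 0.157, edgeR adjusted p = 1.7e-14). Epyc (6.61 and 5.83 against 1.02 and 1.28 CPM), Lum (7.17 and 7.02 against 1.14 and 1.52 CPM) and Fmod (15.97 and 16.8 against 3.2 and 3.53 CPM) encode small leucine-rich proteoglycans, like decorin, and fell by 2.43, 2.41 and 2.28 on the log2 scale. In B16 controls Epyc was at 0, Lum was at 0.0133 CPM in B16F0 and 0 CPM in B16F10 controls and Fmod at 0.0446 CPM in B16F0 and 0.268 CPM in B16F10 controls, so for these genes the lines were not compared. Npr3, the natriuretic peptide clearance receptor, was at 219.8 and 213 CPM in the controls and 57.5 and 56.3 CPM with SX-682 (log2 fold change -1.93, standard error 0.0435, edgeR adjusted p = 1.84e-24). The imprinted gene Mest (chr6:30723547-30748465) was at 208 and 213 CPM in the controls and 56.7 and 54.5 CPM with SX-682 (log2 fold change -1.92, standard error 0.0421, edgeR adjusted p = 9.06e-25). Abca9 fell by 2.11 (4.11 and 3.44 against 0.912 and 0.839 CPM). The overlapping predicted genes Gm18787 (chr15:55474780-55475563, 153 and 146 against 27.6 and 28.2 CPM) and Gm49257 (chr15:55475530-55479377, 60.4 and 60.7 against 11.6 and 10.3 CPM) fell by 2.42 and 2.47, and their reads may be shared. Gm13394, a processed pseudogene, had 79 and 937 counts in the controls and 54 and 57 counts with SX-682, so its call rests on 1 control library, without which the change was -0.27 and did not pass.

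The difference between Melan-A and the B16 lines was tested gene by gene. Against the mean of the B16 changes, the Melan-A change was higher for 3128 genes (17.1%) and lower for 3431 (18.7%). A stricter criterion asked that the Melan-A change be called and lie on the same side of the B16F0 change and of the B16F10 change, each by its own test. It was met by 2655 genes, 1266 above both (6.9%) and 1389 below both (7.57%). Of these, 1065 were called in both B16 lines in the same direction as in Melan-A and differed in size, and 326 were called in neither B16 line. Both differences reached 1 on the log2 scale for 182 genes, 82 above and 100 below.

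A still narrower set of 487 genes changed in Melan-A against a called change of the opposite sign in both B16 lines. SX-682 raised 260 of them in Melan-A (1.42% of genes tested) and lowered 227 (1.24%). Those with a mean of at least 1 log2 CPM over the 4 Melan-A libraries were ranked by the smaller of their differences from the B16 lines. Genes of lower level, such as Nqo1 and Cxcl1, were left out of this ranking. Within it, the 5 raised genes with the largest separation were Nr4a3, Egr1, Hilpda, Rgs2 and Eps8, all described above. The 5 lowered were Cdsn, Actg2, Acap1, Lurap1l and Col4a1. Cdsn, corneodesmosin, was at 110.2 and 110.0 CPM in the controls and 97.7 and 100.3 CPM with SX-682 (log2 fold change -0.15, standard error 0.0394, edgeR adjusted p = 0.00165), beside rises of 2.17 in B16F0 and 3.24 in B16F10; without the first treated library the Melan-A change was -0.12 and did not pass. Actg2, a smooth muscle actin gene whose reads can be shared with other actins, fell by 0.91 (2.64 and 2.72 against 1.29 and 1.56 CPM), against 1.3 in B16F0 and 2.41 in B16F10, and did not pass without the first treated library (-0.77). Acap1, a GTPase-activating protein of ARF6, was at 3.27 and 3.59 CPM in the controls and 1.04 and 1.93 CPM with SX-682, with the 2 treated libraries well apart, and changed by -1.2 against 1.0 in B16F0 and 0.92 in B16F10. Lurap1l fell by 0.28 (58.1 and 60.3 against 48.3 and 49.5 CPM), against 1.31 in B16F0 and 1.57 in B16F10.

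**Figure D4:**
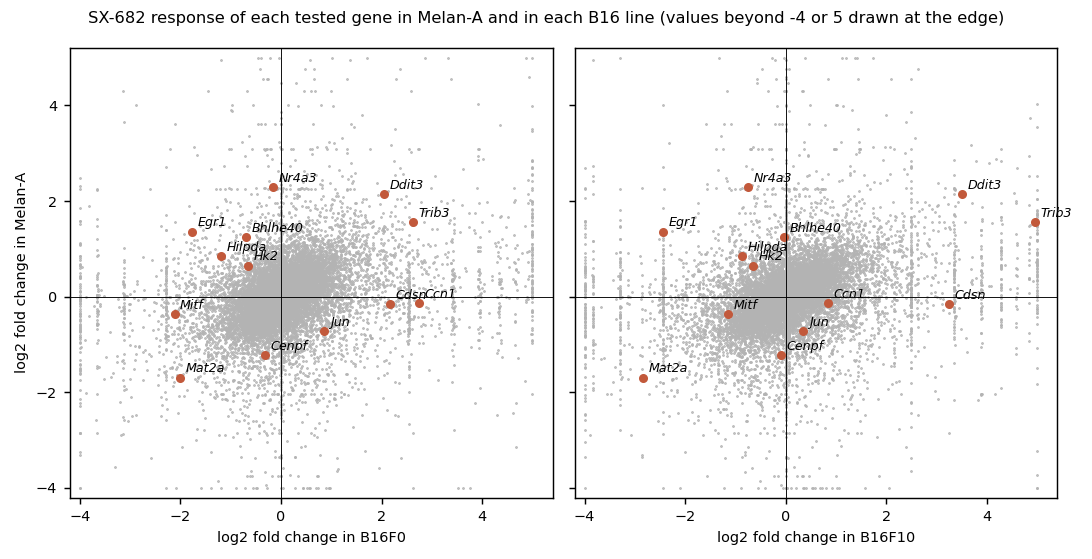
Log2 fold change in Melan-A (vertical axes) against that in B16F0 (left panel) and in B16F10 (right panel) for the 18338 tested genes in grey, with 13 named genes as orange points; values beyond -4 or 5 are drawn at the edge. Egr1, Nr4a3 and Hilpda lie in the upper left of both panels, raised in Melan-A and lowered in B16, and Jun and Cdsn in the lower right.

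Further genes stood outside both B16 changes by a wide margin. Above both, Cbr1, a carbonyl reductase, was at 0.973 and 0.98 CPM in the controls and 2.85 and 3.37 CPM with SX-682 (log2 fold change 1.67, standard error 0.149, edgeR adjusted p = 8.79e-11), and Rab17, a small GTPase of membrane traffic, rose by 0.44 (32.5 and 32.4 against 44.3 and 43.5 CPM) against -0.99 in B16F0 and -1.37 in B16F10. Gm3534, a processed pseudogene, had 20 and 32 counts in the controls and 610 and 17 counts with SX-682 and rests on 1 treated library, without which the change was -0.36. Below both, Elfn2 was at 1.67 and 1.7 CPM in the controls and 5.67 and 6.15 CPM with SX-682 (log2 fold change 1.81, standard error 0.223, edgeR adjusted p = 5.2e-08), a rise in Melan-A that was smaller than the B16 changes of 5.15 in B16F0 and 5.08 in B16F10, which start from 0.148 CPM in B16F0 and 0.0409 CPM in B16F10 controls. The actin nucleator gene Cobl fell by 0.68 (8.22 and 7.25 against 4.57 and 5.08 CPM), and was at 0.020 CPM in B16F0 and 0.00782 CPM in B16F10 controls. Reps2 (3.51 and 3.08 against 1.21 and 1.6 CPM) fell by 1.23, against 0.85 in B16F0 and 0.86 in B16F10. Atp2a3, a calcium pump of the endoplasmic reticulum, was at 2.92 and 3.79 CPM in the controls and 5.27 and 5.58 CPM with SX-682 (log2 fold change 0.69, standard error 0.236, edgeR adjusted p = 0.0157), and at 0.108 CPM in B16F0 and 0.0244 CPM in B16F10 controls. Its Melan-A call was lost without the first control library (0.53) or the second treated library (0.66). Gm12070, a processed pseudogene, had 1185 and 259 counts in the controls and 223 and 88 counts with SX-682, and did not pass without the first control library (-0.41).

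**Figure D5:**
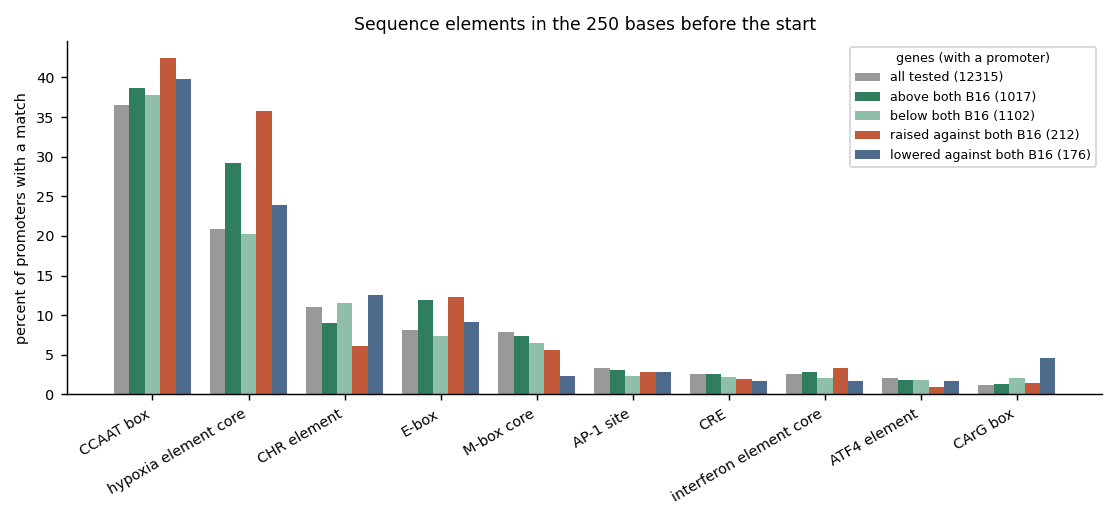
Percent of promoters (250 bases before the start, either strand) that hold each motif, as bars from 0 for all tested genes and for the genes above, below, raised against or lowered against both B16 lines. The hypoxia core is in 35.8% of promoters of genes raised in Melan-A against both B16 lines and in 20.9% of all.

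The share of promoters with the hypoxia core ACGTG varied with the set of raised genes. It was 24.4% over the 3330 promoters of all genes called raised, beside 20.9% of all promoters. Of the 332 promoters of genes raised by at least 1 on the log2 scale 63 held it, a share below that of all promoters. It was in 76 of the 212 promoters of genes raised against both B16 lines (35.8%), while CACGTG was in 12.3%, CCAAT in 42.5% and TTTGAA in 6.13% of them. Of the 176 promoters of genes lowered against both, 4.55% held a CArG box, the site of serum response factor, beside 1.20% of all, and 23.9% held ACGTG. These are shares of letters without a test, and members of the glycolysis list are among the genes counted.

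The 10 transcripts with most counts per base of exon in the controls, Fn1 among them, included raised and lowered genes. The elongation factor gene Eef1a1 was at 5936 and 5779 CPM in the controls and 7310 and 7246 CPM with SX-682 (log2 fold change 0.31, standard error 0.0142, edgeR adjusted p = 2.22e-17), and the mitochondrial genes mt-Co1, mt-Cytb and mt-Nd1 changed by 0.56, -0.31 and 0.18. H19, an imprinted non-coding RNA, was at 4525 and 4375 CPM in the controls and 3743 and 3707 CPM with SX-682 (log2 fold change -0.26, standard error 0.0258, edgeR adjusted p = 1.43e-09). Rplp1 rose by 0.41 (827 and 822 against 1115 and 1081 CPM) and Ptma, prothymosin alpha, fell by 0.48 (2131 and 1904 against 1466 and 1434 CPM), against -0.49 in B16F0 and -0.49 in B16F10. The short RNA Bc1 was at 212 and 173 against 206 and 207 CPM. Gm23935, annotated as a miRNA precursor, was at 294 and 226 against 310.0 and 445 CPM, a log2 change of 0.54 that was 0.26 without the second treated library.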

How the data were processed

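The deposited table held raw counts per gene for 34513 genes in 12 libraries. Per the labels and the submitters' processing notes, the authors made it from total RNA (RNeasy Plus Mini) with cutadapt, STAR and the mm10 build, and named DESeq2; the counting program, its strand setting and versions are not given in the sources used here. Groups were taken from the labels. From the deposited counts, genes passing filterByExpr were fitted with edgeR 4.0.16 (R 4.3.3; TMM, quasi-likelihood F-test, 6 groups of 2 libraries, no block, prior count 0.125), with Benjamini-Hochberg adjustment; DESeq2 1.42.0 served as an alternative. Standard errors are the absolute log2 fold change divided by the square root of F. A self-test used counts simulated from the Melan-A control levels, with changes in the treated Melan-A group alone. B16 levels and responses were not simulated, and its results are not given here. Libraries of a group differed by more than sampling noise (chi-square per gene 2.87 to 5.25), and depth covers counting error only.

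Same-numbered control and treated libraries did not deviate together (r = -0.031, 0.035 and -0.021 over 9727 genes in Melan-A, B16F0 and B16F10), so the numbers were not taken as pairs. Gene lists and named genes were chosen with earlier results of these data known. Named were the 10 largest rises and falls, the 10 largest on each side outside and the 10 against both B16 changes, 3 leading genes and key members of each list, and the 10 highest levels. Except for the key members and the highest levels, these were picked among genes with a mean of at least 1 log2 CPM over the 4 Melan-A libraries. Other genes were named after their values were seen. Some genes that this rule names are not reported here. Of the list genes, Bcl2a1b, Sp5, Claspn, Adgre1 and Cldn5 were not analysed here; Ctgf and Cyr61 were read as Ccn2 and Ccn1. Promoters came from RefSeq (GRCm38.p6), for 12315 of the tested genes. Alternatives were RLE size factors, other count filters, thinning, a fit of the Melan-A libraries alone, a replicate block, a log2 threshold, a prior count of 2 and each library left out.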

Additional observations from a re-analysis of the deposited data

Results flagged for a closer look

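Of the 185 genes named by the rule, 49 changed in Melan-A by at least 1 more or less on the log2 scale than the mean of the B16 lines, with a called edgeR test of the difference (largest adjusted p 0.039), 21 above and 28 below. The rule itself names the genes lying furthest outside both B16 changes, such as Egr1, Nr4a3, Elfn2 and Cdsn. These were among the 49 by selection. Over all 18338 genes tested, 772 met the same criterion. Neither the 49 of 185 nor the split of 21 and 28 is therefore a rate for the whole response. The values are the Melan-A change minus the mean B16 change.

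Of early response genes, Egr1 was above by 3.46, Egr2 by 3.2, Nr4a3 by 2.74 and Fos by 1.28, with Jun at -1.33. Of MAP kinase genes, Spry4 was above by 1.54, Lgals3 by 1.42, Dusp6 by 1.36 and Spry1 by 1.06. Rgs2 was above by 2.15 and Eps8 by 1.6. Egr1, Egr2, Nr4a3, Rgs2, Eps8, Hilpda, Ankrd37, Gm3534, Rab17 and Cbr1 met the part of the rule that takes genes above both B16 changes. Their side was set by that selection. Over the whole early gene list 12 genes were above the mean B16 change and 5 below. In the MAP kinase list 14 were above and 2 below, beside 17.1% and 18.7% of all genes tested. Hypoxia-related Hilpda (1.88), Ankrd37 (1.8), Bhlhe40 (1.61) and Bnip3 (1.03) were above as well. So were Gm3534 (4.35, resting on 1 library), Rab17 (1.62), Cbr1 (1.46), Cd68 (1.31), Mitf (1.26), Dnajb9 (1.24) and Fdps (1.08), whose Melan-A rise of 0.71 was 0.42 and not past the test without the first control library and 1.09 without the second.

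Among those below were the chemokine genes Cxcr1 (-5.98), Cxcl1 (-3.44) and Cxcl5 (-2.01), and the stress genes Nqo1 (-3.43), Trib3 (-2.23), Slc7a11 (-1.53), Gadd45a (-1.4) and Akr1b7 (-1.92). Matrix and YAP-related genes below were Col3a1 (-2.15), Ccn2 (-1.69), Col4a1 (-1.56) and Lamb1 (-1.26). The cell cycle genes Cdkn2c (-1.11) and Cenpf (-1.02) and the blood cell marker Lyz2 (-1.2) were also below. The rest were Cobl (-3.41), Elfn2 (-3.3), Atp2a3 (-3.2), Cdsn (-2.86), Tfcp2l1 (-2.86), Actg2 (-2.76), Gm12070 (-2.21), Cox6a2 (-2.19), Acap1 (-2.16), Reps2 (-2.08), Cfap70 (-1.92) and Lurap1l (-1.72). For 6 of the 49 (Cxcr1, Cobl, Atp2a3, Tfcp2l1, Col3a1 and Egr2) a group was at or under the floor of 3 counts, so the size of the difference depends on the prior count.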

How the results depend on the processing

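The 4 counts of called genes (8831 for the Melan-A change, 6559 against the mean B16 change, 2655 outside both B16 changes and 487 against both) stayed within 1.5 times under DESeq2 (8122, 6068, 2396 and 436), under RLE size factors, with no filter, with at least 10 counts in every library and after thinning to the depth of the smallest library. A further requirement of an absolute log2 change, or difference, of at least 1 left 1008, 772, 115 and 4 genes, fewer by construction. With 1 library left out, which leaves its group with a lone library assumed to vary like the others, the counts ran from 7455 to 7982, 5602 to 6500, 2160 to 2611 and 404 to 475. A fit of the 4 Melan-A libraries alone gave 9306 calls for the Melan-A change, with Cxcl2 (-0.36) and Fgf21 (0.92) now past the threshold and Kit (1.41) no longer. A fit with the replicate number as a block, although the numbers did not pair the libraries, gave 8824, 6531, 2652 and 489, and in it 1 of the 234 named genes crossed the threshold (Fgf21, to 0.90, now past it). Apart from Gm3534, 22 of the named genes changed their side of the threshold under at least 1 alternative. Among genes called in the reported fit or in the alternative, the sign turned for 1, Gm3534, whose change ran from -0.36 without the first treated library to 4.87 without the second. Under DESeq2 7 named calls were lost, those of Atp2a3, Cxcl15, Cxcr1, Gm12070, Gm13394, Ifitm3 and Kit. The cause was not tested. A prior count of 2 changes the fold changes and not the p-values, so by construction no gene could cross the threshold. Depth limits the CXCR2 axis genes, which other than Cxcl2 were below 1 CPM, and genes at the floor in a B16 group, for which a difference between lines has no firm size.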

Other observations

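Several genes separated Melan-A from the B16 lines by level, and the near absence of counts on the other side leaves no response to compare between lines. H19 had 1333277 counts over the 4 Melan-A libraries and 7 over the 8 B16 libraries, the imprinted gene Peg3 239389 and 2, the skeletal muscle troponin gene Tnnt3 164536 and 1, and Cytl1 67583 and 0. In the other direction Marveld1 had 0 counts in Melan-A and 26243 in B16, and Fkbp6 had 4 and 74217.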
